A study of Mus musculus with 15 samples.

Results

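Integrins are the main receptors through which cells hold on to the extracellular matrix. Each is a pair of one alpha and one beta chain, the alpha chain largely sets which matrix protein is bound, and the short tails inside the cell are coupled to actin by talin, kindlin and other adaptors. In pigment cells integrins anchor melanocytes to the laminin and collagen of the basement membrane, and a changed set of them, Itgb3 above all, has long been followed in the passage from melanocyte to invasive melanoma. The 10 integrin subunits described here are Itga2, Itga3, Itga5, Itga6, Itga7, Itga9, Itgav, Itgb1, Itgb3 and Itgb5, out of 26 integrin genes and 22180 genes measured in all. They were chosen by name with the group differences of these same arrays already known, and how far those differences weighed in the choice is not recorded, so the tests below place each subunit among all genes and are no independent support for the choice. Each gene is read by its probe set (a group of array probes given as one value) with the highest mean over all 15 arrays, among those annotated with exactly 1 gene symbol. These means ran from 7.83 for Itga9 to 11.82 for Itga6 on the log2 scale. Itgav was the one member with a second probe set.

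Expression was read on 15 one-colour Affymetrix arrays from the mouse line melan-Ink4a-Arf-1 (melan-a), immortal melanocytes from animals with the Cdkn2a tm1RDp/tm1RDp genotype, an allele that all groups share. There were 5 groups of 3 arrays. The groups Si1 and Si6 each received 1 of 2 small interfering RNAs (siRNAs) against Hif1a, the oxygen-regulated subunit of a transcription factor, 24 h before hypoxia. The negative control and the hypoxia control were also hypoxic, and the labels do not say what either received. Hypoxia was 1% oxygen with 5% CO2 for 24 h, and normoxia was about 21% oxygen with 10% CO2, so the effects of oxygen and CO2 cannot be told apart. All groups grew in medium with serum, phorbol ester and cholera toxin. The triplicates are called biological, from 1 line, with no further account of the cultures, so p-values measure the spread between these samples. Every value is a log2 intensity, a step of 1 is a 2-fold change, and levels of different genes are not set against each other.

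Hif1a, the target, read 8.59 to 8.75 with Si1 and 8.90 to 8.98 with Si6, against 10.56 to 10.68 in the negative control, on the brighter of its probe sets. The other Hif1a probe set, at means of 5.32 to 5.47, did not show the knockdown. Of 8 melanocyte markers, all were well measured in every group, with group means of 9.38 to 13.33. Their mean over the list was 11.20 to 11.31 on Si1 arrays, 11.76 to 11.84 on Si6 arrays, 11.51 to 11.58 in the negative control, 12.02 to 12.06 in the hypoxia control and 12.28 to 12.30 in normoxia. All 8 were lower with Si1 than with Si6 past the test (limma, adjusted p under 0.05), where 13.4% of all genes were. In the negative control 7 of 8 were lower than in the hypoxia control past the test (7.51% of all genes). The remaining marker, Tyrp1, was at -0.05 there (limma adjusted p = 0.611). The part of these markers in the integrin results was not tested. Markers of fibroblasts, keratinocytes, leukocytes, endothelium and skeletal muscle had group means of at most 7.58, apart from Col1a1 (up to 9.35) and Cd68 (up to 9.65), and the median gene of the array was at 6.90. Of 5 leukocyte markers, Cd68 alone passed the test with Si1, at 1.33 against the negative control, and Ptprc, the pan-leukocyte marker, had group means of 4.43 to 4.58. In bulk RNA, fewer cells that express a gene and less RNA per cell cannot be told apart.

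Of the 26 measured integrin genes, which include the 10, 10 were higher (9.87% of all genes were) and 1 lower (11.2%) in the hypoxia control against normoxia. In the negative control against normoxia 12 were higher (14.6% of all genes) and 1 lower (15.7%). With Si1 4 were higher (20.2% of all genes) and 9 lower (14.8%) than in the negative control, and with Si6 1 was higher (17%) and 10 lower (11.9%). The family's median log2 fold changes were 0.13, 0.14, -0.01 and -0.03 in these comparisons, against 0.00, 0.00, -0.01 and -0.01 over all genes. A call here means a limma adjusted p (Benjamini-Hochberg over all 22180 genes) under 0.05. Both hypoxia comparisons share the normoxic arrays, and both siRNA comparisons share the negative control arrays.

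**Figure D1:**
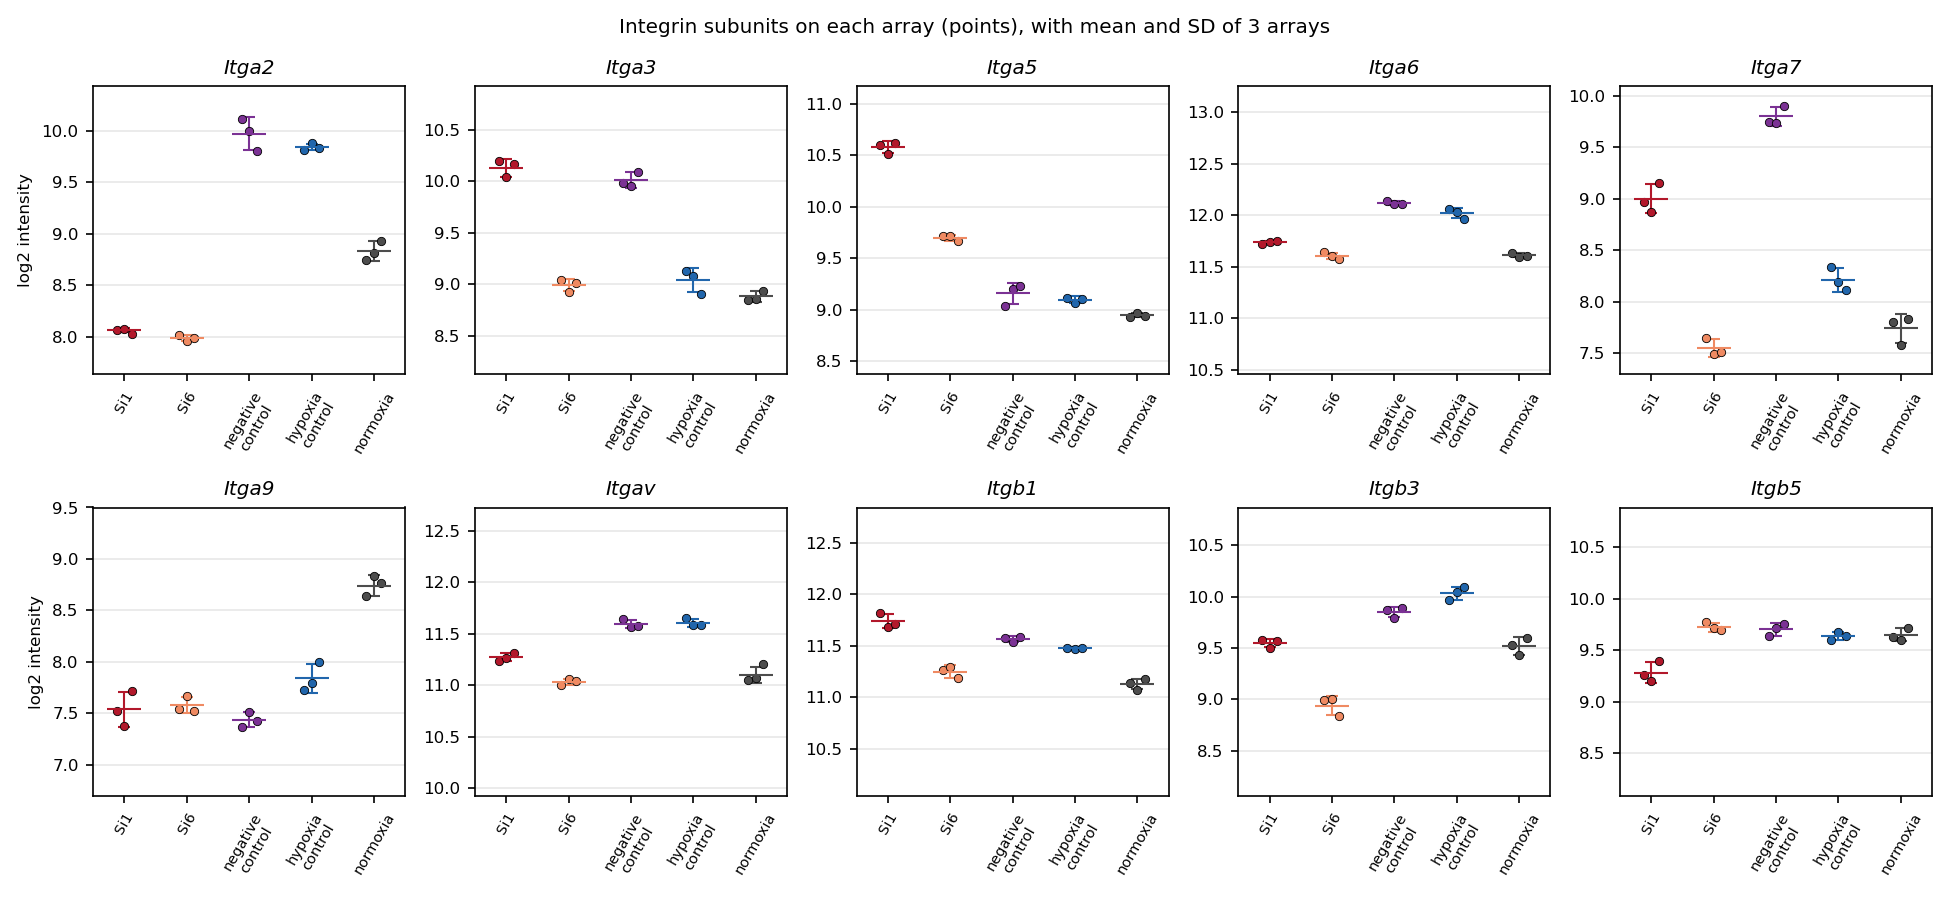
Log2 intensity (vertical axis, 1 panel per subunit, each spanning the same range) on each of 15 arrays, as points, with bars for means and whiskers for SDs of 3 arrays. Itga2 with Si1 and Si6 lies below all 9 other arrays, and Itga7 is at 9.74 to 9.90 in the negative control, above all other arrays.

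Among the 10 subunits, 5 were on the same side in all of these comparisons. Itga2, Itga6, Itga7, Itgav and Itgb3 were higher in both hypoxic controls than in normoxia and lower with each siRNA than in the negative control, each past the test. Over all genes, 2.98% met these 4 conditions together. The negative control enters both siRNA comparisons and also a hypoxia comparison, so a high level in it counts towards each of these. Against the hypoxia control, Itga2, Itga6, Itgav and Itgb3 were also lower with each siRNA past the test. Itga7 was lower there with Si6 but higher with Si1, at 0.78. Of the 10, 6 were called higher in the hypoxia control than in normoxia, where 9.87% of all genes were, and 1 lower, where 11.2% were. In the negative control against normoxia the counts were 8 higher (14.6% of all genes) and 1 lower (15.7%). Si1 gave 2 higher (20.2%) and 6 lower (14.8%), and Si6 gave 1 higher (17% of all genes) and 7 lower (11.9%). The choice of these 10 was made with such results known, so nothing is read from the difference to all genes.

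**Figure D2:**
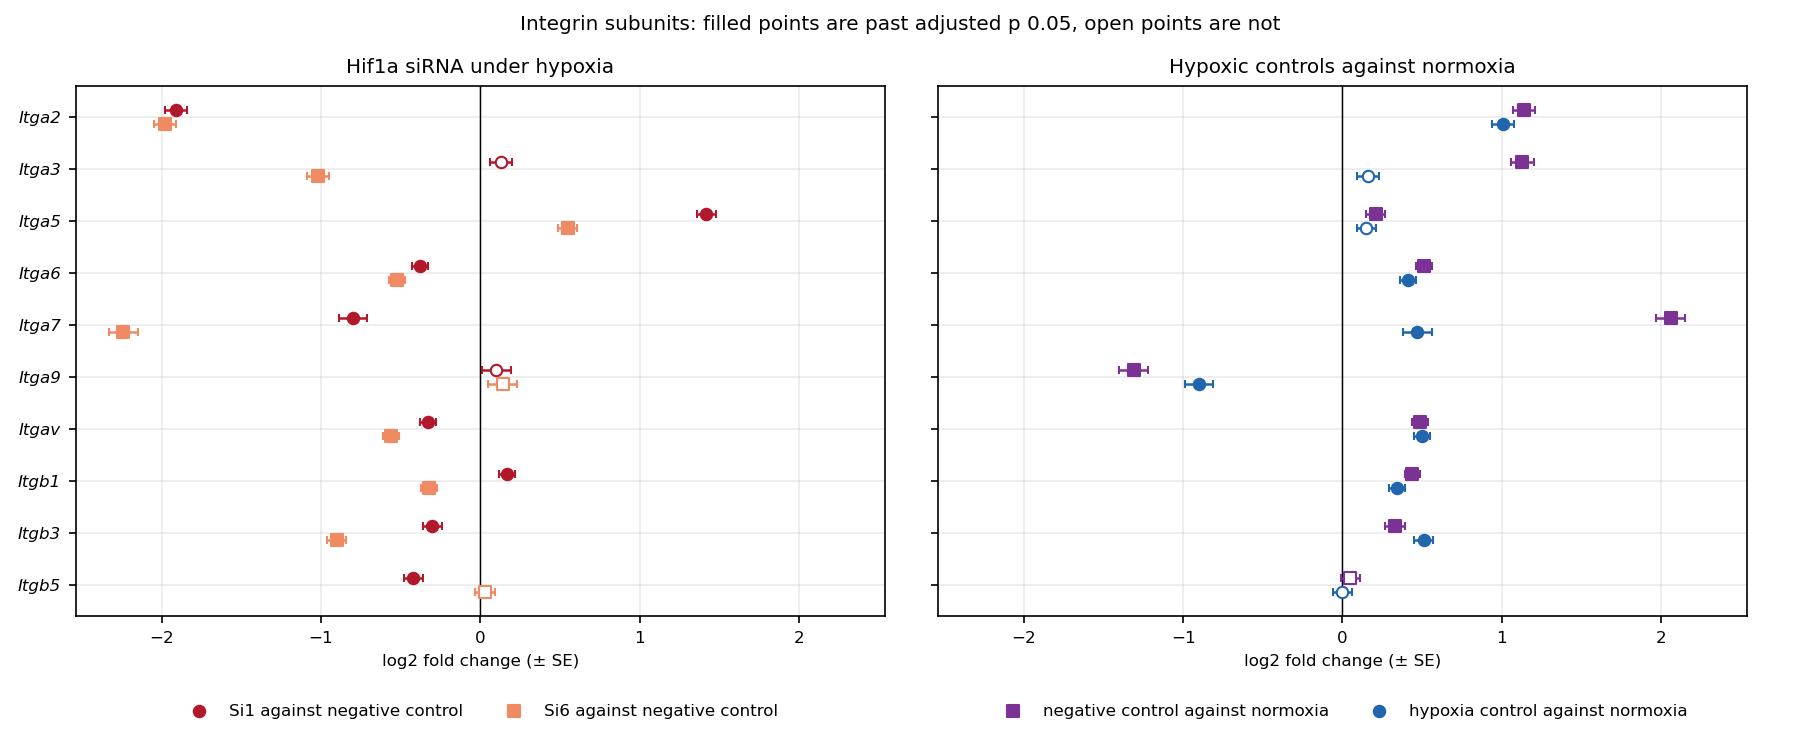
Log2 fold change with its standard error (horizontal axis) of the 10 subunits for Si1 and Si6 against the negative control (left) and for the negative control and hypoxia control against normoxia (right). Itga2 is near -1.91 and -1.98 with the siRNAs and near 1.14 and 1.01 with hypoxia, while Itga9 is below 0 on the right and open on the left.

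Itga2, which pairs with Itgb1 as a collagen receptor, fell in both siRNA groups. Its log2 intensities were 8.06, 8.07 and 8.03 with Si1, 8.02, 7.96 and 7.99 with Si6, 10.11, 10.00 and 9.80 in the negative control, 9.81, 9.88 and 9.83 in the hypoxia control, and 8.74, 8.81 and 8.93 in normoxia. The siRNA arrays were lowest, the normoxic arrays lay between, and the hypoxic controls were highest, with no overlap among these 3 levels. Itga2 rose by 1.01 ± 0.07 in the hypoxia control against normoxia (limma adjusted p = 7.3e-08) and by 1.14 ± 0.07 in the negative control against normoxia (limma adjusted p = 6.4e-09), where ± after a fold change is limma's standard error. Against the negative control it was at -1.91 ± 0.07 with Si1 (adjusted p = 2.2e-11) and -1.98 ± 0.07 with Si6 (adjusted p = 4.0e-11). Those groups thus stood at 26.5% and 25.4% of the negative control. The siRNAs did not differ past the test, at 0.07 for Si1 against Si6 with a 95% interval of -0.09 to 0.22. Both siRNA groups also lay below normoxia, at -0.77 ± 0.07 for Si1 (adjusted p = 2.6e-07) and -0.84 ± 0.07 for Si6 (adjusted p = 2.3e-07).

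The related collagen receptor Itga1, not one of the 10, had a similar course. It was at 0.60 ± 0.07 in the hypoxia control and 0.90 ± 0.07 in the negative control against normoxia. With Si1 it fell by 0.86 and with Si6 by 1.16 on the log2 scale against the negative control (limma adjusted p = 6.2e-08 and 5.4e-09). Unlike Itga2, Itga1 in the Si1 group, at 7.68 to 7.85, overlapped the normoxic arrays, at 7.65 to 7.84.

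Promoter sequence is shown for Itga2 and Itgav, which rose with hypoxia and fell with both siRNAs, and for Itga9, which fell with hypoxia. RefSeq promoter windows (GRCm38.p6) were at hand for 7 of the 10 subunits. Each window is the 250 bases before the annotated start, 5′ to 3′ on the gene's strand. Capitals mark ACGTG or GCGTG, read on both strands, the 2 forms of the core to which hypoxia-inducible factors bind. The forms share 4 of 5 letters, and a palindromic CACGTG would count once on each strand.
Itga2, chr13:114932101-114932350, minus strand: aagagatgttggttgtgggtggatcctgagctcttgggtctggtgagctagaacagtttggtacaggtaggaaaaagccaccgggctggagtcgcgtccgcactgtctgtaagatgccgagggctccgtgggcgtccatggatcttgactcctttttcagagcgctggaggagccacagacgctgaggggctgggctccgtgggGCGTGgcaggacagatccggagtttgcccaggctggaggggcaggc
Itgav, chr2:83724147-83724396, plus strand: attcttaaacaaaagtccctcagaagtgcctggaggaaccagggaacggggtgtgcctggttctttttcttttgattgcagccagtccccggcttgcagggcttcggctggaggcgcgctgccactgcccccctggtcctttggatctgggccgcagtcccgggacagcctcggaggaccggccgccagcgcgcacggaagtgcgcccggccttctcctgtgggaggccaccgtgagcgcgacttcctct
Itga9, chr9:118711442-118711691, plus strand: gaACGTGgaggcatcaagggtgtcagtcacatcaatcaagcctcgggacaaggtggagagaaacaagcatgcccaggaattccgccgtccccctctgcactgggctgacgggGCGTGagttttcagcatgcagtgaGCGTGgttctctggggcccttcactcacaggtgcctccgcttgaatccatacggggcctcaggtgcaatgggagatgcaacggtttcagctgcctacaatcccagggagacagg

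The Itga2 window held 1 GCGTG, the Itgav window neither form, and the Itga9 window 1 ACGTG and 2 GCGTG. Itgb5 held 1 GCGTG, while Itga3, Itga5 and Itgb1 held neither form in theirs. That is 3 of 7 subunits and 3 of their 8 windows, since Itga3 had more than 1 window. Of 32851 windows of all genes, 38.6% held one form or the other (16.6% ACGTG and 28.2% GCGTG). The letters describe these windows and do not show binding.

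The laminin receptor chains Itga3, Itga6 and Itga7, all of which can pair with Itgb1, differed in how they moved. Itga6 had the narrowest spread of these, with a range of 0.52 between its highest and lowest group means, against 1.25 for Itga3 and 2.24 for Itga7. Its log2 intensities were 11.72, 11.74 and 11.75 with Si1, 11.64, 11.60 and 11.57 with Si6, 12.14, 12.11 and 12.11 in the negative control, 12.06, 12.03 and 11.96 in the hypoxia control, and 11.63, 11.59 and 11.60 in normoxia. Both hypoxic controls lay above all other arrays. Itga6 rose by 0.41 ± 0.05 in the hypoxia control (limma adjusted p = 7.8e-06) and 0.51 ± 0.05 in the negative control (adjusted p = 3.4e-07) against normoxia. It was lower with Si1, at -0.38 ± 0.05 (adjusted p = 5.9e-06), and with Si6, at -0.52 ± 0.05 (adjusted p = 4.5e-07), than in the negative control. With Si6 it did not differ past the test from normoxia, at -0.01 ± 0.05 (adjusted p = 0.950).

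Itga7, the chief laminin integrin chain of skeletal muscle, had the widest range among the 10 and separated the hypoxic controls. It read 8.97, 8.87 and 9.15 with Si1, 7.65, 7.49 and 7.51 with Si6, 9.75, 9.74 and 9.90 in the negative control, 8.34, 8.19 and 8.11 in the hypoxia control, and 7.80, 7.58 and 7.83 in normoxia. The negative control was highest, Si1 came next, and Si6 overlapped normoxia. Against normoxia Itga7 was at 0.47 ± 0.09 in the hypoxia control (limma adjusted p = 9.3e-04) and 2.06 ± 0.09 in the negative control (adjusted p = 1.4e-10). Against the negative control it was at -0.80 ± 0.09 with Si1 (adjusted p = 2.3e-06) and -2.24 ± 0.09 with Si6 (adjusted p = 8.4e-11), so the groups stood at 57.4% and 21.1% of it. Set against the hypoxia control instead, the siRNAs pointed in opposite directions, at 0.78 ± 0.09 with Si1 (adjusted p = 2.2e-06) and -0.66 ± 0.09 with Si6 (adjusted p = 2.2e-05). The direction for Si1 thus depends on which hypoxic control it is set against. The muscle markers Myod1, Myog, Acta1 and Ckm had group means of 6.29 to 7.53. They passed no test of either siRNA against the negative control, or of either hypoxic control against normoxia. The siRNA groups were set against normoxia for the 10 subunits alone. Des, desmin, passed in both siRNA groups against the negative control, at 0.65 with Si1 and 0.36 with Si6. It was 0.28 higher in the negative control than in the hypoxia control. In Si1 against Si6, where Itga7 was at 1.44, Des at 0.29 and Acta1 at 0.23 also passed (adjusted p = 0.019 and 0.048). The part of these markers in the Itga7 result was not tested.

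Itga3, a receptor chain for epithelial laminins, fell into a high and a low set of groups. The high values were 10.20, 10.04 and 10.17 with Si1 and 9.98, 9.95 and 10.09 in the negative control. The low ones were 9.04, 8.92 and 9.01 with Si6, 9.13, 9.08 and 8.90 in the hypoxia control, and 8.85, 8.86 and 8.93 in normoxia. Within each set the arrays of different groups overlapped, and the sets did not. Itga3 was lower with Si6 than in the negative control, at -1.02 ± 0.07 (limma adjusted p = 3.1e-08), and with Si1 it was at 0.13 ± 0.07 (adjusted p = 0.190, 95% interval -0.02 to 0.27). The negative control was above normoxia by 1.13 ± 0.07 (adjusted p = 6.0e-09), while the hypoxia control was at 0.16 ± 0.07 (adjusted p = 0.132), which passed without hypoxia control array c (0.23, adjusted p = 0.031). A fall of Itga3 with Si6 was not seen against the hypoxia control, where it was at -0.05 ± 0.07 (adjusted p = 0.677).

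Itga5, which with Itgb1 forms the classical fibronectin receptor, rose with both siRNAs. Its log2 intensities were 10.60, 10.51 and 10.62 with Si1, 9.72, 9.72 and 9.67 with Si6, 9.04, 9.20 and 9.23 in the negative control, 9.12, 9.07 and 9.11 in the hypoxia control, and 8.93, 8.97 and 8.94 in normoxia. Si1 was highest, Si6 stood between, and the hypoxic controls overlapped each other. Against the negative control the rise was 1.42 ± 0.06 with Si1 (limma adjusted p = 3.7e-11) and 0.55 ± 0.06 with Si6 (adjusted p = 1.8e-06), to 267% and 146% of that level. Against normoxia Itga5 was at 0.21 ± 0.06 in the negative control (adjusted p = 0.008), and the hypoxia control was at 0.15 ± 0.06 (adjusted p = 0.066). With quantile normalization, with trend and robust moderation, and with the dimmest genes left out, that last value passed the test at adjusted p of 0.022 to 0.042.

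Fibronectin, the ligand of that receptor, fell with both siRNAs, where Itga5 rose. Fn1 read 12.45 to 12.53 with Si1, 11.73 to 11.82 with Si6, 12.73 to 12.90 in the negative control, 12.74 to 12.84 in the hypoxia control and 11.89 to 11.96 in normoxia. It rose by 0.87 ± 0.05 in the hypoxia control against normoxia (limma adjusted p = 2.1e-08) and fell by 0.32 with Si1 and 1.05 with Si6 against the negative control.

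Itga9, a chain that with Itgb1 binds tenascin-C and VCAM-1, was the one subunit of the 10 that fell with hypoxia. It read 7.52, 7.38 and 7.72 with Si1, 7.54, 7.67 and 7.52 with Si6, 7.37, 7.51 and 7.43 in the negative control, 7.73, 7.79 and 8.0 in the hypoxia control, and 8.64, 8.83 and 8.77 in normoxia. Normoxic arrays lay above all hypoxic ones. The change against normoxia was -0.90 ± 0.09 in the hypoxia control (limma adjusted p = 2.6e-06) and -1.31 ± 0.09 in the negative control (adjusted p = 2.0e-08). Neither siRNA changed it past the test against the negative control, at 0.10 (95% interval -0.09 to 0.29) with Si1 and 0.14 (-0.05 to 0.33) with Si6. Against the hypoxia control both were lower, at -0.30 ± 0.09 with Si1 and -0.26 ± 0.09 with Si6 (adjusted p = 0.015 and 0.036). Both siRNA groups stayed below normoxia, at -1.20 ± 0.09 and -1.17 ± 0.09 (adjusted p = 2.3e-08 and 8.1e-08).

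Itgav and Itgb3, which together form a receptor for vitronectin and other matrix proteins, both rose with hypoxia and fell with the siRNAs. Itgav read 11.23, 11.26 and 11.31 with Si1, 11.00, 11.06 and 11.04 with Si6, 11.64, 11.56 and 11.57 in the negative control, 11.65, 11.58 and 11.58 in the hypoxia control, and 11.05, 11.07 and 11.20 in normoxia. The hypoxic controls were highest, and Si6 overlapped normoxia. Against normoxia Itgav rose by 0.50 ± 0.05 in the hypoxia control and 0.49 ± 0.05 in the negative control (limma adjusted p = 4.9e-06 and 2.8e-06). Against the negative control it was at -0.33 ± 0.05 with Si1 and -0.56 ± 0.05 with Si6 (adjusted p = 1.2e-04 and 9.2e-07). The second Itgav probe set, at a mean of 4.78, passed no comparison, with values of -0.06 to 0.16. When the probe sets were averaged, the Si1 value was -0.08 and no longer passed (adjusted p = 0.286). The averaged values were -0.21 with Si6, 0.29 in the hypoxia control and 0.26 in the negative control, and these still passed.

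Itgb3 read 9.58, 9.50 and 9.57 with Si1, 8.99, 9.00 and 8.84 with Si6, 9.87, 9.79 and 9.89 in the negative control, 9.97, 10.04 and 10.09 in the hypoxia control, and 9.53, 9.43 and 9.60 in normoxia. Si6 was lowest, Si1 overlapped normoxia, and the hypoxia control was highest. The rise against normoxia was 0.51 ± 0.06 in the hypoxia control (limma adjusted p = 2.0e-05) and 0.33 ± 0.06 in the negative control (adjusted p = 6.6e-04). Itgb3 was at -0.30 ± 0.06 with Si1 (adjusted p = 0.001) and -0.90 ± 0.06 with Si6 (adjusted p = 3.4e-08) against the negative control. With Si6 it also lay below normoxia, at -0.57 ± 0.06 (adjusted p = 2.8e-06).

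Itgb5, another beta chain that pairs with Itgav, changed with 1 siRNA. It read 9.26, 9.20 and 9.39 with Si1, against 9.60 to 9.77 on all 12 other arrays. The value was -0.42 ± 0.06 with Si1 (limma adjusted p = 2.8e-05) and 0.03 ± 0.06 with Si6 (adjusted p = 0.805) against the negative control. Against normoxia it was at 0.00 ± 0.06 in the hypoxia control (95% interval -0.13 to 0.12) and 0.05 ± 0.06 in the negative control (-0.07 to 0.18).

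Itgb1, the beta chain with which Itga2, Itga3, Itga5, Itga6, Itga7, Itga9 and also Itgav can pair, moved less than most of these partners. It read 11.82, 11.68 and 11.71 with Si1, 11.27, 11.30 and 11.19 with Si6, 11.58, 11.54 and 11.59 in the negative control, 11.48, 11.47 and 11.48 in the hypoxia control, and 11.14, 11.07 and 11.18 in normoxia. None of the groups overlapped, though Si6 and normoxia (0.12, adjusted p = 0.110) and the negative and hypoxia controls (0.09, adjusted p = 0.314) did not differ past the test. Against normoxia it rose by 0.34 ± 0.05 in the hypoxia control (limma adjusted p = 1.8e-04) and 0.44 ± 0.05 in the negative control (adjusted p = 9.0e-06). With Si6 it fell by 0.32 on the log2 scale against the negative control (adjusted p = 2.2e-04). With Si1 it was 0.17 ± 0.05 higher (adjusted p = 0.019), and this call was lost without Si1 array a (0.13, adjusted p = 0.10), without negative control array b (0.15, adjusted p = 0.069) and with only these groups in the fit (0.17, adjusted p = 0.070). Called in opposite directions with the siRNAs, as Itgb1 was, were 2.43% of all genes.

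The siRNAs differed from each other in 8 of the 10 subunits. Si1 was higher than Si6 in 7 (14.5% of all genes were called higher) and lower in 1 (13.4%). The differences past the test were 1.44 ± 0.09 for Itga7, 1.14 ± 0.07 for Itga3, 0.87 ± 0.06 for Itga5, 0.61 ± 0.06 for Itgb3, 0.49 ± 0.05 for Itgb1, 0.23 ± 0.05 for Itgav, 0.14 ± 0.05 for Itga6 and -0.45 ± 0.06 for Itgb5. Their limma adjusted p ran from 7.9e-09 for Itga3 to 0.035 for Itga6. The Itga6 difference was lost in 7 of 14 alternative settings, with adjusted p up to 0.118, and that of Itgav with the mean of its probe sets (0.13, adjusted p = 0.082). Itga9, like Itga2, did not differ past the test, at -0.04 with a 95% interval of -0.23 to 0.16.

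The negative control and the hypoxia control differed past the test in 3 subunits, 2 higher (7.8% of all genes) and 1 lower (7.51%). Itga7 was higher in the negative control by 1.58 ± 0.09. Itga3 was higher by 0.97 ± 0.07 (limma adjusted p = 2.0e-07) and Itga9 lower, at -0.40 ± 0.09 (adjusted p = 0.006). Itgb3 was at -0.18 ± 0.06 (adjusted p = 0.060), and it passed in 4 of 14 alternative settings. Itga2, at 0.13, passed without negative control array c (0.22, adjusted p = 0.033), and Itga6, at 0.10, with trend and robust moderation (adjusted p = 0.030). Against the hypoxia control, Si1 had 4 subunits higher (20.9% of all genes) and 6 lower (17.1%), and Si6 had 1 higher (16.9%) and 7 lower (12.9%).

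**Figure D3:**
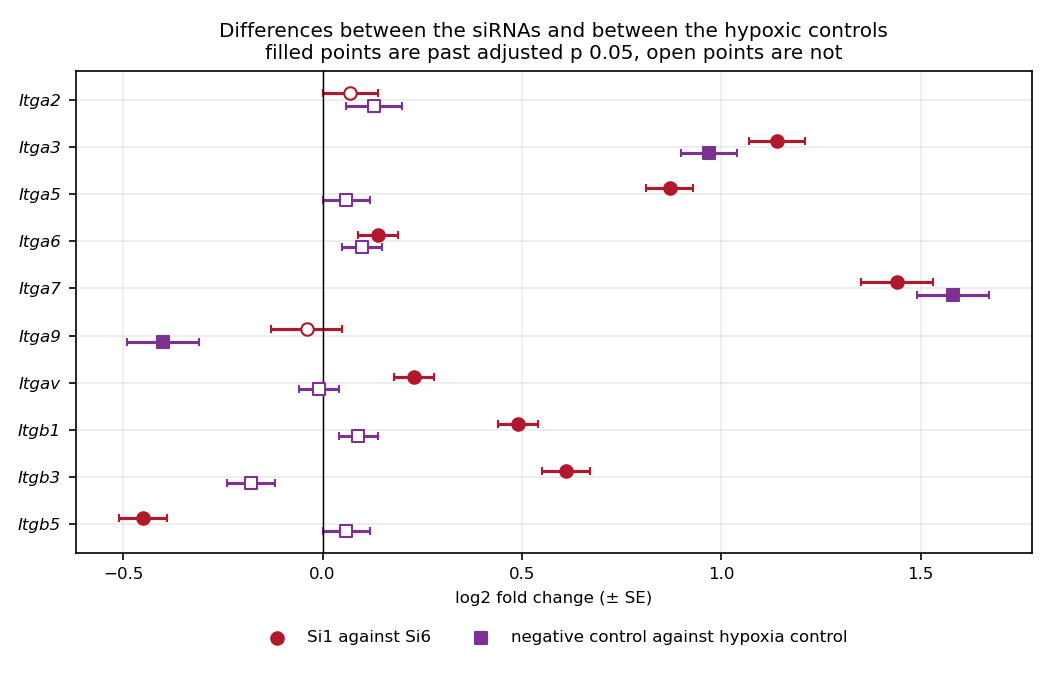
Log2 fold change with its standard error (horizontal axis) of the 10 subunits for Si1 against Si6 (circles) and for the negative control against the hypoxia control (squares). Itga3 and Itga7 are near or above 1 in both, while Itga5 is at 0.87 for Si1 against Si6 and 0.06 between the hypoxic controls.

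Set against normoxia, the 2 siRNA groups left different subunits apart. With Si6 3 of 10 were lower than normoxia (13.1% of all genes were), namely Itga2, Itga9 and Itgb3, and 1 was higher (17% of all genes), namely Itga5 at 0.76 ± 0.06 (limma adjusted p = 4.9e-08). With Si1 3 were lower (17.4%), namely Itga2, Itga9 and Itgb5 at -0.37 ± 0.06, and 6 were higher (21.7%). The largest of those were Itga5 at 1.63 ± 0.06, Itga7 at 1.26 ± 0.09 and Itga3 at 1.25 ± 0.07.

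Of the 16 integrin genes outside the 10, 4 rose (9.87% of all genes did) and 0 fell (11.2%) in the hypoxia control against normoxia, where 12 did not pass. They were Itga8, which with Itgb1 binds nephronectin, at 0.76 ± 0.05, Itga1 at 0.60 ± 0.07, Itga4, a partner of Itgb1 that binds VCAM-1, at 0.22 ± 0.05 and Itgb4, the partner of Itga6 in hemidesmosomes, at 0.19 ± 0.06 (adjusted p = 5.8e-08 to 0.045 by limma). Against the negative control, 2 of the 16 rose (20.2% of all genes) and 3 fell (14.8%) with Si1. With Si6 0 rose (17%) and 3 fell (11.9%). Itga8 read 10.48 to 10.53 with Si1 and 10.48 to 10.54 with Si6. In the negative control it read 10.96 to 11.06, in the hypoxia control 10.57 to 10.69 and in normoxia 9.82 to 9.92. It was at -0.52 ± 0.05 with Si1 and -0.51 ± 0.05 with Si6 against the negative control (limma adjusted p = 7.2e-07 and 1.8e-06). The negative control was itself 0.39 ± 0.05 above the hypoxia control in Itga8 (limma adjusted p = 6.5e-05). Itgb8, a partner of Itgav, was higher with Si1 by 0.47 ± 0.06 (limma adjusted p = 1.4e-05) and at 0.01 ± 0.06 with Si6. The blood cell chains Itga2b, Itgad, Itgae, Itgal, Itgax and Itgb7 passed no test in these comparisons. The leukocyte chains Itgam and Itgb2 each passed 1, Itgam at 0.22 ± 0.07 with Si1 against the negative control (limma adjusted p = 0.027) and Itgb2 at 0.25 ± 0.08 in Si1 against Si6 (limma adjusted p = 0.030). The leukocyte marker Cd68 was higher with Si1 in those comparisons too, by 1.33 and 1.13, and its part in these values was not tested.

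**Figure D4:**
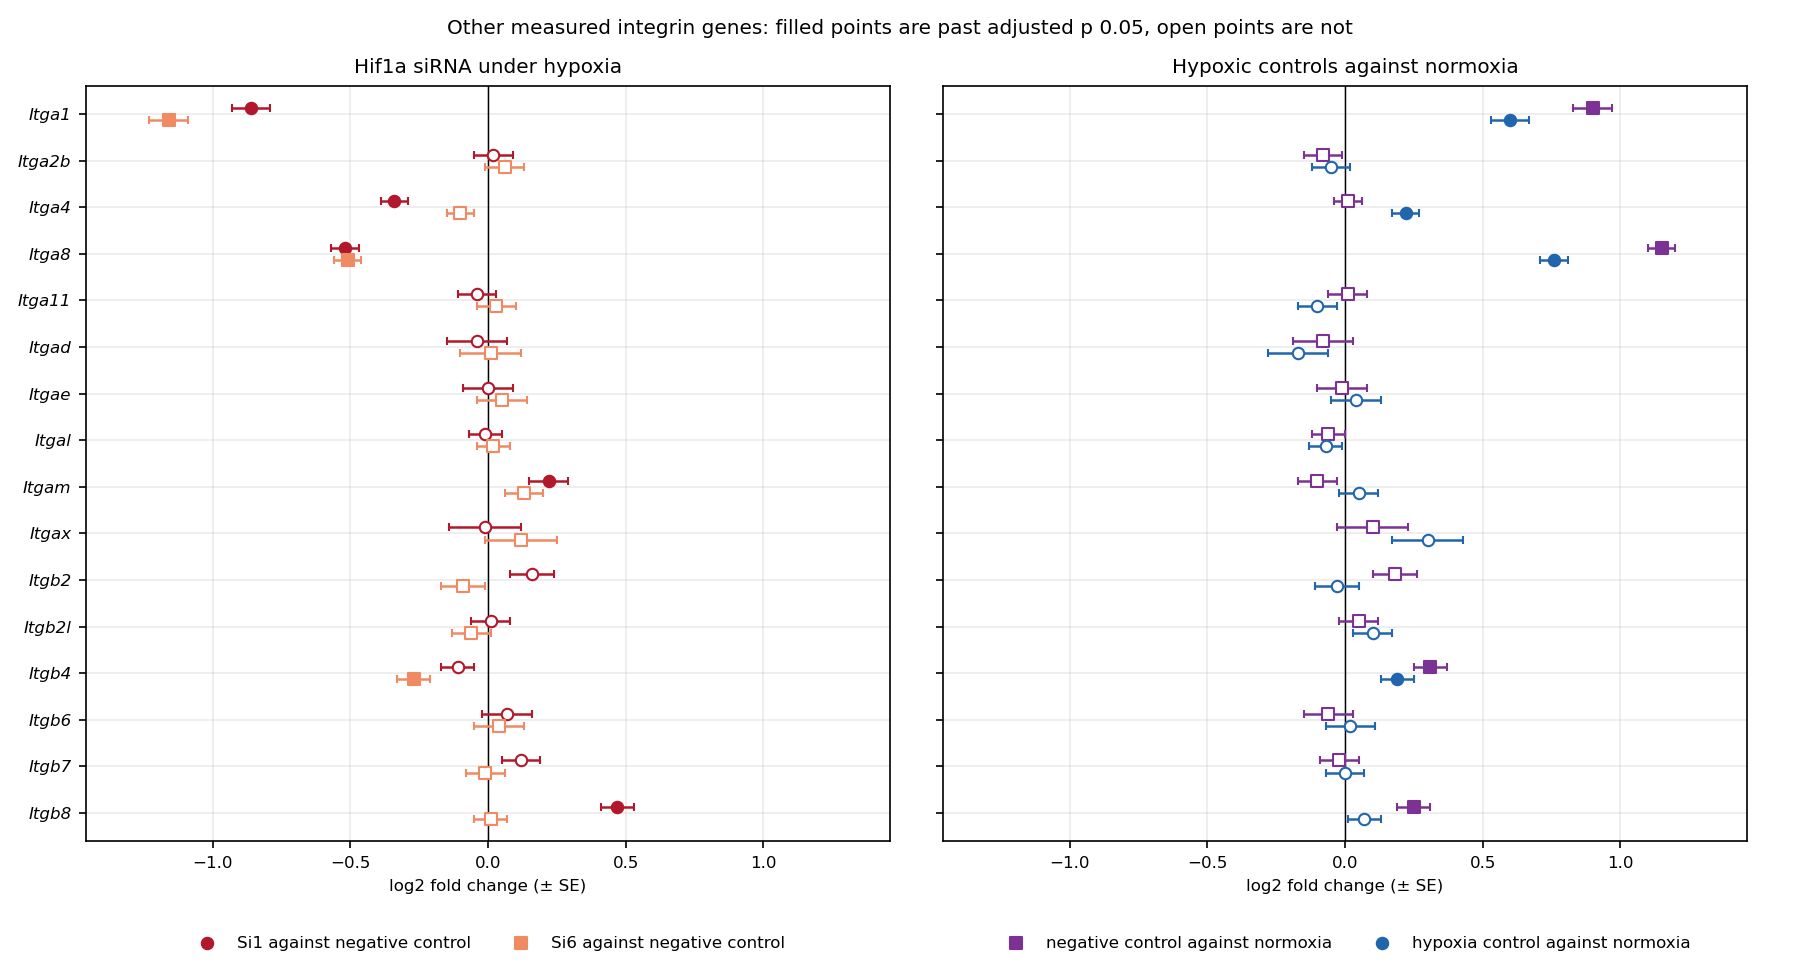
Log2 fold change with its standard error (horizontal axis) of the 16 other measured integrin genes, in the same layout as for the 10 subunits. Itga1 and Itga8 are to the left of 0 with both siRNAs and to the right of 0 in both hypoxic controls, and most of the rest are open points near 0.

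Of 23 measured genes of matrix ligands 11 rose (9.87% of all genes did) and 4 fell (11.2%) in the hypoxia control against normoxia, with a median of 0.09. In the negative control 12 rose (14.6% of all genes) and 6 fell (15.7%), with a median of 0.33. The basement membrane chains Col4a1 (0.69 and 0.72) and Lama4 (0.42 and 0.46) were among those that rose in both, as were Col4a2, Lamb1 and Lamc1. The other laminin chains did not, as Lamb3 fell in both (-0.20 and -0.18) and Lama1 and Lama3 passed in neither. Lama5 rose and Lamb2 fell in the negative control alone, at 0.33 and -0.35. Col1a1, a chain of fibrillar collagen, was at -1.0 ± 0.09 in the hypoxia control and -0.58 ± 0.09 in the negative control. With Si1 4 rose (20.2% of all genes) and 9 fell (14.8%) against the negative control, and with Si6 2 rose (17%) and 14 fell (11.9%). The medians were -0.10 and -0.26, against -0.01 over all genes. Edil3, a secreted protein bound by Itgav pairs, fell with both, by 0.85 and 0.92 on the log2 scale. Its group means, from 5.76 with Si6 to 6.81 in the hypoxia control, lay below the median gene of the array, at 6.90.

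The siRNAs differed in several ligands. Tnc, tenascin-C, read 9.32 to 9.51 with Si1, 6.20 to 6.57 with Si6 and 7.96 to 8.15 in the negative control, so that Si1 was at 1.35 ± 0.08 and Si6 at -1.67 ± 0.08 (limma adjusted p = 5.3e-09 and 1.1e-09). Ccn1, a matricellular protein bound by Itgav pairs, was at 1.18 ± 0.09 and -0.84 ± 0.09. Ccn1 was also 1.12 ± 0.09 higher in the negative control than in the hypoxia control (limma adjusted p = 6.3e-07). Its mean with Si6, 8.79, lay below the negative control, at 9.63, but above the hypoxia control, at 8.51. Thbs1, thrombospondin 1, stood at -0.04 ± 0.08 with Si1 and -1.38 ± 0.08 with Si6. It was higher in the negative control than in the hypoxia control by 1.16 ± 0.08 (limma adjusted p = 1.6e-07).

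**Figure D5:**
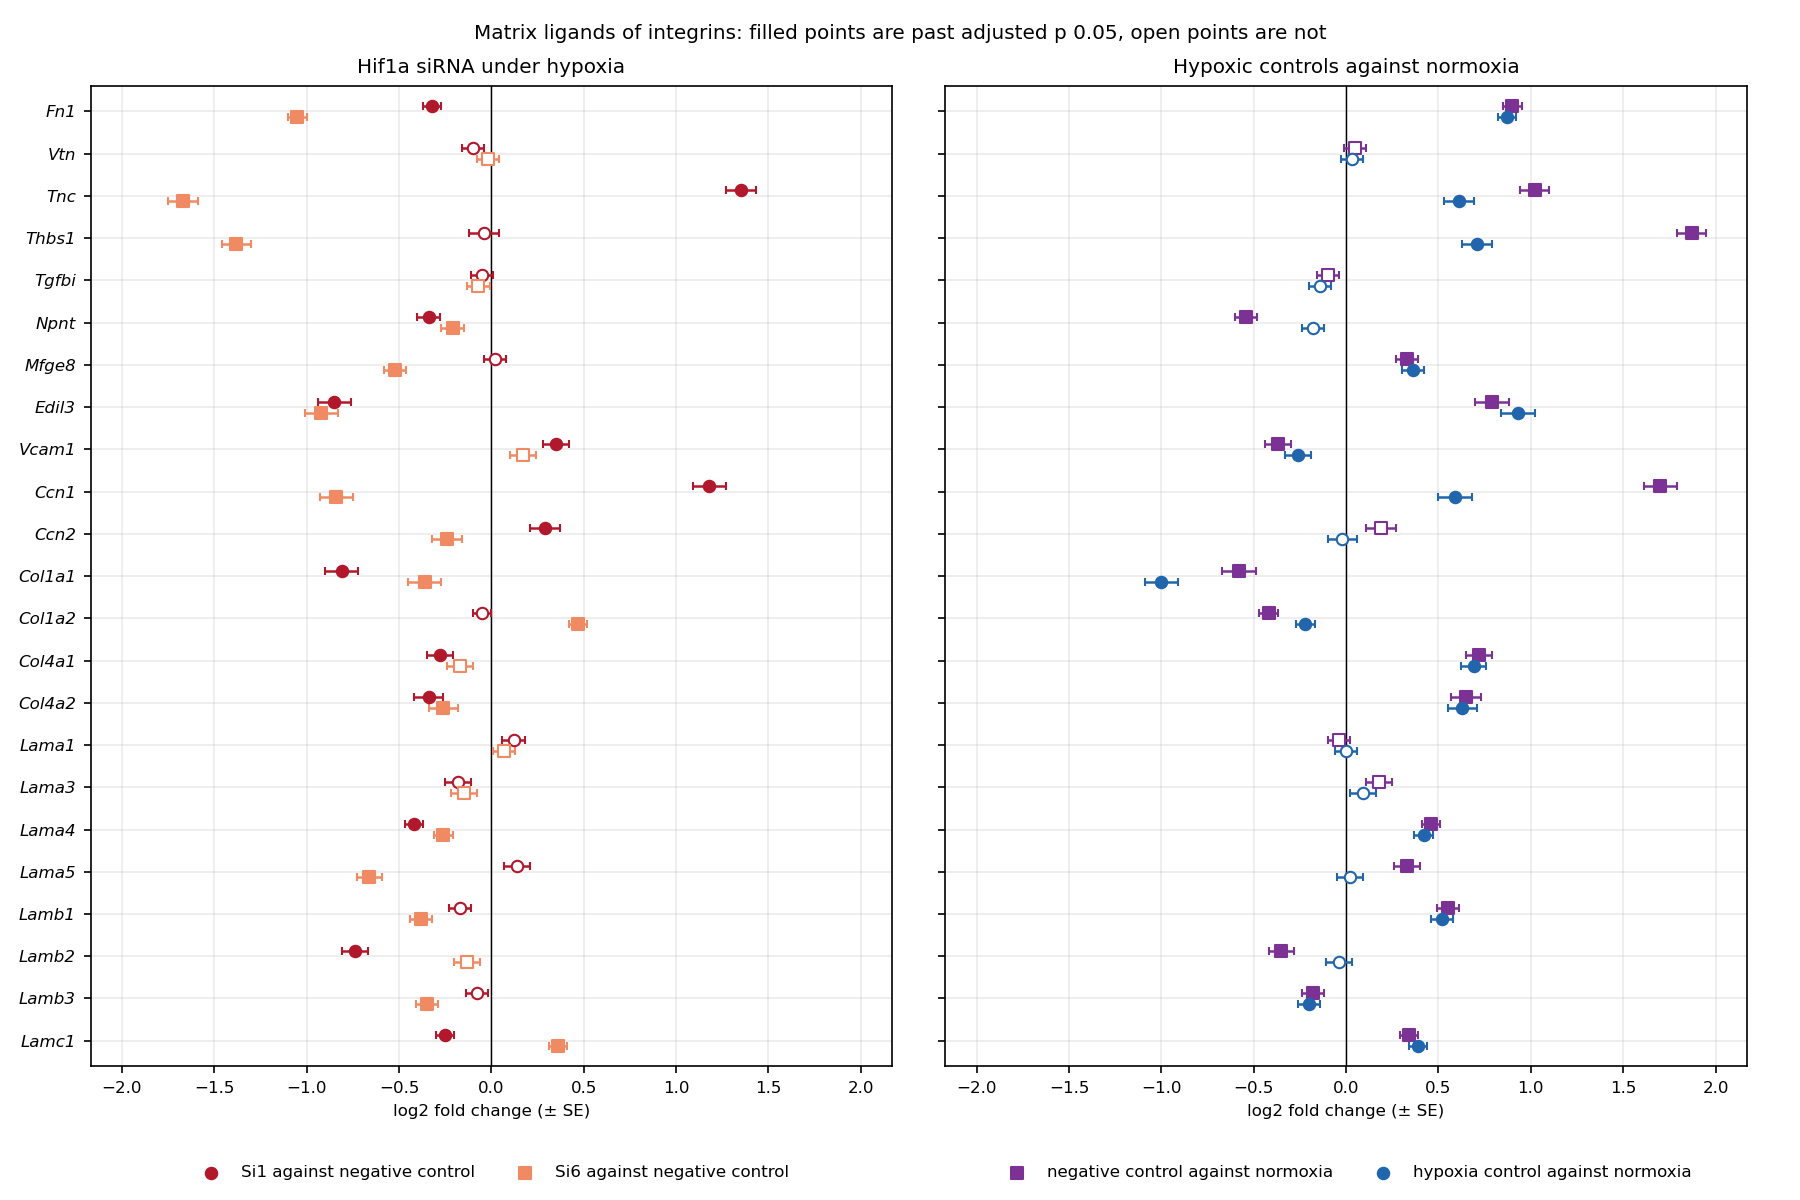
Log2 fold change with its standard error (horizontal axis) of 23 matrix ligand genes, for Si1 and Si6 against the negative control (left) and for the negative control and hypoxia control against normoxia (right). Tnc, Ccn1, Ccn2 and Lamc1 have filled points on opposite sides of 0 for the siRNAs, while Fn1 and Edil3 are below 0 with both.

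Of 18 measured adaptors that couple integrin tails to actin, 9 rose and 1 fell in each hypoxic control against normoxia, with medians of 0.17 in the hypoxia control and 0.20 in the negative control. Over all genes 9.87% rose and 11.2% fell in the hypoxia control, and 14.6% and 15.7% in the negative control. The gene that fell was Parvb, a parvin of the integrin-linked complex, at -0.60 ± 0.05 in the hypoxia control and -0.72 ± 0.05 in the negative control, and it rose with both siRNAs, at 0.67 ± 0.05 and 0.71 ± 0.05. With Si1 9 adaptors rose (20.2% of all genes) and 3 fell (14.8%) against the negative control, and with Si6 2 rose (17%) and 8 fell (11.9%). Actn1, which crosslinks actin at adhesions, had changes of 0.94 ± 0.06 with Si1 and -0.02 ± 0.06 with Si6. Tns1, a tensin, had changes of 1.07 ± 0.10 and -0.18 ± 0.10. Of 4 tail binders that restrain integrins, Itgb1bp1 rose with both siRNAs against the negative control, at 0.40 ± 0.06 and 0.45 ± 0.06. Its means were 8.69 with Si1 and 8.75 with Si6, against 8.29 in the negative control and 8.59 in the hypoxia control. Those controls differed by -0.30 ± 0.06 (limma adjusted p = 0.002). Flna, filamin A, was at 0.46 ± 0.05 with Si1 and -0.37 ± 0.05 with Si6 against the negative control.

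Among 10 membrane partners of integrins, 2 rose (20.2% of all genes did) and 3 fell (14.8%) with Si1 against the negative control. With Si6 1 rose (17% of all genes) and 4 fell (11.9%). Plaur, the urokinase receptor, read 10.15 to 10.55 with Si1, 7.02 to 7.23 with Si6, 7.08 to 7.36 in the negative control, 6.71 to 6.90 in the hypoxia control and 6.69 to 6.89 in normoxia. Si1 stood apart from all other arrays, at 3.13 ± 0.11 against the negative control (limma adjusted p = 1.0e-11), and Si6 was at -0.09 ± 0.11. Cav1, caveolin 1, had a change of -0.27 ± 0.09 with Si1 and -1.97 ± 0.09 with Si6 against the negative control. It rose by 1.14 ± 0.09 in the hypoxia control against normoxia. Cav1 was also 0.73 ± 0.09 higher in the negative control than in the hypoxia control (limma adjusted p = 3.9e-05). Its mean with Si1, 8.39, lay below the negative control, at 8.66, but above the hypoxia control, at 7.93. Cd47, which associates with Itgav and Itgb3, and Bsg, basigin, fell with both siRNAs, Cd47 by 0.76 and 0.40 and Bsg by 0.57 and 0.42 on the log2 scale.

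For the 3 subunits with the widest range of group means, the genes most like them over the 15 arrays were named by Pearson's r, as a description of arrays that share 5 groups. Itga7 was most like Efemp1 (0.980), Prkar2b (0.978) and Cavin2 (0.962), all highest in the negative control and followed by Si1, with 39 genes over 0.9. Itga2 was most like Casp12 (0.99), Cpq (0.988) and Dock10 (0.985), with 190 genes over 0.9. Itga5 was most like Naa50 (0.988), Mrpl3 (0.985) and Cct7 (0.985), with 609 genes over 0.9. Casp12, for one, averaged 7.68 with Si1 and 7.54 with Si6, against 9.45 in the negative control, 9.19 in the hypoxia control and 8.36 in normoxia.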

How the data were processed

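The authors deposited 1 table of log2 intensities for 15 arrays and 41345 probe sets, with array medians of 6.52 to 6.61. Biotinylated cRNA was hybridised, per the labels' protocols. The submitters' processing notes name RMA and Partek, without version, setting or order. Normalization between arrays hides a change shared by all genes, and dim probe sets have compressed fold changes. The number of arrays limits the precision.

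The platform annotation gave exactly 1 gene symbol to 23521 probe sets, for 22180 genes, and a gene with several was read by the brightest on average. One model with a mean for each of 5 groups was fitted to 15 arrays with limma 3.58.1 (R 4.3.3) and moderated with eBayes, with no covariate. Tests were two-sided, adjusted by Benjamini-Hochberg over all genes at a threshold of 0.05, and the fit was tested on simulated data. The members, the 5 lists of related genes and the markers were chosen with earlier results of these data known. All 10 members were named, and from each list up to 3 genes with the largest change past the test in a comparison, and for 3 members the 3 genes with the highest Pearson's r. Further list genes, and comparisons of the siRNA groups with normoxia and the hypoxia control, were added after their values were seen. Genes of the lists without such a probe set, among them Itga10, Ptk2, Ilk and Spp1, were not analysed here. No pairing of the arrays by replicate letter was seen in the values. Deviations from group means correlated over 0.1 in 3 of 30 same-letter and 7 of 60 different-letter pairs from different groups. Whether cultures were paired by design cannot be told from this. The alternatives were another normalization (quantile or median centring), fewer genes (without the lowest 25% or 50%), averaged probe sets, moderation with a trend and robust, a fit of the compared groups alone, the letter as a block, and each array left out.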

Additional observations from a re-analysis of the deposited data

Results flagged for a closer look

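In 9 genes, Itgb1 among the 10 subunits and 8 of the related lists, Si1 and Si6 passed the limma test in opposite directions against the negative control and also differed from each other, as did 2.43% of all genes. They were 1 of 10 subunits, 3 of 18 adaptors, 1 of 4 tail binders and 4 of 23 matrix ligands. None came from the 16 other integrins or the 10 membrane partners. The lists were chosen with results known, so nothing is read from the difference to all genes. Itgb1 differed by 0.49 between Si1 and Si6, with 0.17 and -0.32 against the negative control. Tnc had the widest difference at 3.02, followed by Ccn1 at 2.02 and Flna at 0.83. Vcl differed by 0.60, Actn4 by 0.52, Ccn2 by 0.52 and Tln1 by 0.43, all higher with Si1. Lamc1 was the one that was lower with Si1 than with Si6, at -0.61. The limma adjusted p of these 9 differences ran from 4.5e-12 for Tnc to 1.4e-04 for Ccn2. Between the hypoxic controls, Ccn1, Vcl, Tnc and Actn4 were higher in the negative control past the test, by 1.12, 0.57, 0.41 and 0.20. With Si6 Ccn1 averaged 8.79 and Vcl 10.91, above the hypoxia control, at 8.51 and 10.77. Their direction with Si6 thus depends on the hypoxic control used. Tnc, at 6.39, and Actn4, at 11.96, averaged below the hypoxia control, at 7.66 and 12.00. The siRNA groups were tested against the hypoxia control for the 10 subunits alone. Groups of 3 arrays are too small for a test of single outlying arrays.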

How the results depend on the processing

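Of 60 values (10 subunits in 6 comparisons), 48 kept their direction and their side of the threshold under all 14 alternatives of their comparison, 9 crossed the threshold at least once and 3 changed sign. The sign changes counted were of values that passed no test in either setting. A value that rounds to 0.00 and passed no test was not counted as changing sign. This held for Itgb5 in the hypoxia control against normoxia, at -0.03 to 0.03 over the alternatives. Itgb5 with Si6 against the negative control was at -0.02 with quantile normalization and 0.00 without negative control array a, Itga9 in Si1 against Si6 at 0.05 and 0.01 without array b of either group (-0.12 to 0.05 over left-out arrays), and Itgav in the negative control against the hypoxia control at 0.00 and 0.01 without negative control array b or hypoxia control array a (-0.04 to 0.01 over left-out arrays). The count of subunits lower in the negative control than in the hypoxia control was 2, with Itgb3 added, under quantile normalization, trend and robust moderation, and with the lowest 25% or 50% of genes left out. The count higher with Si1 than in the negative control was 1 with only these groups in the fit, and 1 to 2 when an array was left out, from the loss of Itgb1. With the replicate block no call changed, and 6 and 7 subunits stayed lower with Si1 and Si6. Scanner files and detection calls were not analysed here, so no gene is called absent.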
